A study of Mus musculus with 7 samples.

Results

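Pulmonary neuroendocrine cells are rare airway epithelial cells that store peptides and amines in dense-core vesicles, and 9 genes commonly used to mark them were followed through lung development: Calca, Chga, Chgb, Scg2, Scg5, Uchl1, Syp, Snap25 and Insm1. They were chosen by symbol, and 7 of the 9 were read from tables of 21121 genes, while Scg2 and Snap25 were not analysed here. The samples were 7 libraries of lung epithelial cells from C57BL/6 mice, with no genetic change or treatment named: E13.5 (embryonic day 13.5), E15.5 and P14 (postnatal day 14) gave 1 library apiece, and E18.5 and P56 gave 2. At every stage live cells were sorted for the epithelial surface protein Epcam and against the blood and vessel proteins CD31, CD45, CD146 and Ter119. This sort did not separate the airway from the alveolar lineage. No source used here says whether animals were pooled or whether libraries of a stage came from separate litters, so p-values reflect the spread among these libraries alone, which may be technical.

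Neuroendocrine cells are the first specialised cells to arise in the airway lining, where they lie singly and in clusters called neuroepithelial bodies that touch sensory nerves. The transcription factor Insm1 promotes their differentiation, Notch signalling limits their number, and the mature cells package peptides with the help of granins and release them through the same membrane fusion machinery that neurons use. Uchl1, Chga, Syp and Calca products are the usual stains for these cells in lung sections.

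Of the 7 genes, Uchl1 alone was abundant. It was high at E13.5 and E15.5 and fell steeply by E18.5. Insm1 was present almost only at E13.5, and Chga was seen at E13.5 alone, at a few reads. The peptide, granin and vesicle genes Calca, Chga, Chgb, Scg5 and Syp stayed at 0 to 11 reads in each library of 2559927 to 3895740 reads. Thus 5 of the 7 genes had fewer than 50 reads over all libraries together, where the median gene had 69, and the hallmark granins and peptides of neuroendocrine cells were at or near the limit of detection in these sorted cells.

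Values are reads divided by 1 factor per library, with 1 read worth 0.236 to 0.385 units. Epcam had 643 reads at E13.5 and 148 to 594 in the other libraries, and of 5 epithelial markers Epcam was called lower at E18.5 than at the early stages (log2 change -1.37, limma adjusted p = 0.0203), while Cdh1, Krt8 and Nkx2-1 were called higher and Krt18 was not called. The CD45 gene Ptprc had at most 4. Neuron markers, 8 of 14 of them with values, summed to 4 to 21 reads per library, and Schwann cell and glia markers, 3 of 5 with values, to 4 to 14 reads. The neurofilament genes Nefl and Nefm had at most 1 read in any library, and Nefl was at 0 in each library but E13.5. Summed reads of mesenchymal markers were 173 to 552 in every library. Endothelial markers summed to 56 and 53 in the early libraries and 7 to 31 later, and immune markers to 2 and 0 in the early libraries and 4 to 102 later. The part of these cells in the member values was not tested.

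Short stretches of regulatory sequence are shown for 3 members with different courses: Uchl1, abundant and falling, Chga, seen at E13.5 alone, and Calca, at a few reads in 5 of the 7 libraries. Each runs from 250 bases before to 50 bases after the RefSeq gene start on GRCm38.p6 and is written 5′ to 3′ on the gene's own strand. Uchl1 is at chr5:66675871-66676170 on the plus strand, Chga at chr12:102554691-102554990 on the plus strand and Calca at chr7:114636308-114636607 on the minus strand. Capitals mark every match, on either strand, to the E-box CAGCTG that bHLH factors can bind, the TATA box TATAAA, the GC box GGGCGG and the core TGACG of the cAMP response element, and none of the matches overlap in these 3 windows.
Uchl1: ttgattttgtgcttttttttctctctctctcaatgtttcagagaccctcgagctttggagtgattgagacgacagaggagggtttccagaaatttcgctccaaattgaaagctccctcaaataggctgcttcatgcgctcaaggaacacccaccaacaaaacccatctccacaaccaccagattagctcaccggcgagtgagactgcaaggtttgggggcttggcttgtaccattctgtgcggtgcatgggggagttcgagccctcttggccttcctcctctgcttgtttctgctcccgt
Chga: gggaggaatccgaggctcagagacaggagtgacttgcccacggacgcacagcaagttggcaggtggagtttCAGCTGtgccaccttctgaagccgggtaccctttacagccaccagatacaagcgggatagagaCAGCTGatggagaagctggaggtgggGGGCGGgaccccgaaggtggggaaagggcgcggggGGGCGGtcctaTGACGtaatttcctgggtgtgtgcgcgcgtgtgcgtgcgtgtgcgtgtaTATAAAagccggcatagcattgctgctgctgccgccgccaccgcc
Calca: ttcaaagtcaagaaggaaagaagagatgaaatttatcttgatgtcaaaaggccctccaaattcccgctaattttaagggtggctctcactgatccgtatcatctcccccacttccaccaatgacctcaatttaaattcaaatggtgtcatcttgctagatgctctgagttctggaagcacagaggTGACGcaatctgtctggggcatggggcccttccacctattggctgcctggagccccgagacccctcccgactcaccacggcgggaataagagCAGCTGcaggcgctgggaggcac
The Uchl1 window held none of the 4 motifs, the Chga window held all 4 and the Calca window held the E-box and the core TGACG. Promoters of 7 of the 9 symbols were matched in RefSeq. TGACG was found in 5 of them (Calca, Chga, Chgb, Scg2 and Scg5) and in 20.8% of all 32851 promoters. CAGCTG was found in 3 (Calca, Chga and Chgb) and in 16.3% of all, GGGCGG in 4 and in 35.7%, and TATAAA in 1, Chga, and in 13.6%. A match in these letters is a description and not a bound site.

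The fall of Uchl1 was the main change among the members. Uchl1 (ENSMUSG00000029223.12, chromosome 5, 66676091 to 66687234 on GRCm38, GENCODE vM21, protein-coding) encodes a deubiquitinating enzyme that is abundant in neurons and neuroendocrine cells. Its value was 1624 at E13.5 (6874 reads) and 851 at E15.5 (2371 reads). At E18.5 it was 28.1 in replicate 1 and 46.0 in replicate 2, a mean of 37.0 ± 12.6 (SD, n = 2). It was 21.2 at P14, and at P56 it was 25.9 in replicate 1 and 5.51 in replicate 2, a mean of 15.7 ± 14.4 (SD, n = 2). Both early libraries stood far above the other 5, and the P14 value lay between those of the P56 libraries. From E13.5 to E15.5 the value fell 1.91-fold by ratio (95% counting interval 1.822 to 2.001), and from E15.5 to the E18.5 libraries 22.9-fold (19.8 to 26.65). Counting intervals cover the sampling of reads only, and neither ratio has a replicate at the early stage. The E18.5 libraries differed from each other 1.64-fold (1.21 to 2.22) and the P56 libraries 4.70-fold (2.78 to 8.42), so Uchl1 varied between libraries of a stage beyond the sampling of reads. The order of the lowest stages is therefore not settled by these values. In this bulk material fewer cells of a type and less RNA per cell cannot be told apart.

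E18.5 was set against the averaged E13.5 and E15.5 libraries to ask how the genes moved through the late fetal period. The model was limma-trend on log2(value + 1) over all 7 libraries, with adjustment by the Benjamini-Hochberg method over 12964 genes that passed a filter on low reads. Only 3 of the 7 members passed that filter: Calca, Uchl1 and Insm1. Of these 3, Uchl1 and Insm1 were called lower at E18.5 (adjusted p under 0.05) and none higher. Over all genes tested, 13.4% were called lower and 15.8% higher, 29.1% in either direction. A member that passes the filter by its early reads alone can hardly be anything but lower later, so the count of 2 of 3 is a description. The log2 change of Uchl1 was -4.99 (SE 0.601, limma adjusted p = 0.00121), and it was -5.46 against E13.5 alone and -4.53 against E15.5 alone, both also called. All E18.5 values lay below both early values. With no filter on low reads the change was as large, and the limma adjusted p of Uchl1 was 0.096. With E18.5 replicate 1, E18.5 replicate 2, P56 replicate 1 or P56 replicate 2 left out, limma called no gene at all on 1 residual degree of freedom, and its adjusted p was 0.105 to 0.110 for Uchl1 and 0.0841 to 0.116 for Insm1.

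**Figure D1:**
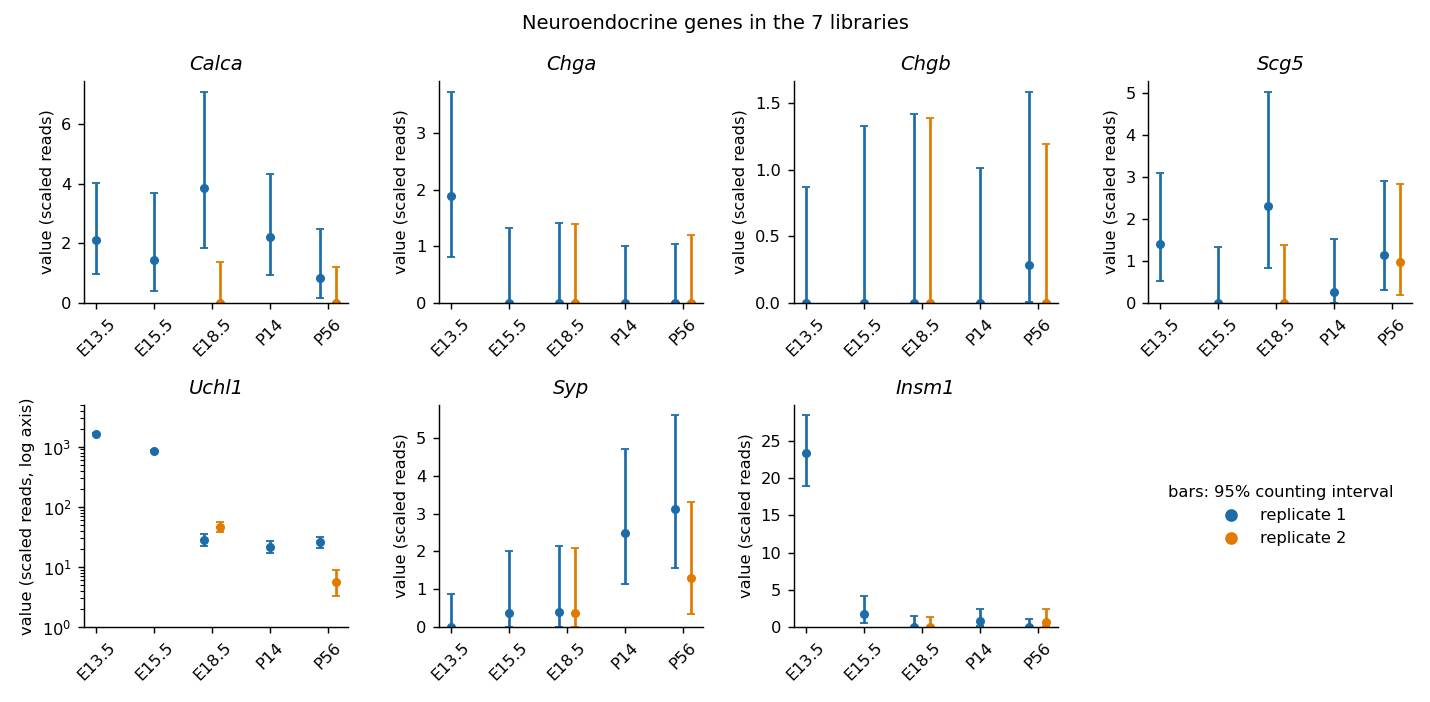
Value of each of the 7 neuroendocrine genes (scaled reads; the Uchl1 axis is logarithmic) in the 7 libraries by stage, with points for libraries and bars for the 95% counting interval of the reads. Uchl1 drops from 1624 and 851 in the early libraries to between 5.51 and 46.0 in the others, Insm1 stands at 23.4 at E13.5 and at most 1.79 elsewhere, and the other 5 genes stay at or under 3.85.

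Insm1, a zinc finger transcription factor that drives neuroendocrine differentiation, was the only regulator among the members. It is a protein-coding gene on chromosome 2 at 146221921 to 146225020. It had 99 reads at E13.5 (value 23.4, counting interval 19.0 to 28.5) and 5 reads at E15.5 (value 1.79, 0.583 to 4.19). It had 0 reads in both E18.5 libraries, 3 at P14, 0 in P56 replicate 1 and 2 in P56 replicate 2. The single E13.5 library thus held nearly all of its reads, and differences among the later stages were not detectable at this depth. The ratio of E13.5 to E15.5 was 13.04 (counting interval 5.404 to 41.04). Against a floor of 3 reads over the E18.5 libraries together, Insm1 was at least 40.95-fold higher at E13.5 and at least 3.14-fold higher at E15.5. The limma change from the early mean to E18.5 was -3.05 on the log2(value + 1) scale (SE 0.529, adjusted p = 0.00569). It was -4.61 against E13.5 alone (adjusted p = 0.00239) and -1.48 against E15.5 alone (adjusted p = 0.189), so the call rests on the E13.5 library.

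The step from E13.5 to E15.5 rests on 1 library each and has no test. A difference of at least 2 in log2(value + 1) was taken as the mark of size, and 5.23% of the 12964 genes were that far apart, 1.5% higher and 3.73% lower at E13.5. Among the 3 members, Insm1 was past it with 3.13, and Uchl1 was not with 0.93.

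Chga, chromogranin A, a matrix protein of dense-core vesicles and the textbook neuroendocrine marker, lies on chromosome 12 at 102554969 to 102565028. Chga had 8 reads at E13.5 (value 1.89, counting interval 0.816 to 3.73) and 0 reads in each of the other 6 libraries. Against a floor of 3 reads over the later stage as a whole, for counting error only, Chga was at least 1.76-fold higher at E13.5 than at E15.5 and at least 3.31-fold higher than over the E18.5 libraries together. In a limma fit with no filter on low reads it was called lower at E18.5 than at the early mean (log2 change -0.77, adjusted p = 0.00758), from values of exactly 0 in 6 libraries. Both replicated stages, E18.5 and P56, were at 0 throughout, so this p does not rest on a measured spread of Chga. Chgb, the related granin chromogranin B (chromosome 2, 132781278 to 132795079), had 1 read in all, in P56 replicate 1.

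Calca and Scg5 were seen at a few reads at scattered stages. Calca (chromosome 7, 114631478 to 114636357, minus strand) encodes calcitonin and, by alternative splicing, the sensory peptide CGRP, which a value per gene does not separate. E13.5 gave 9 reads of Calca, E15.5 gave 4 and P14 gave 8, while its replicates held 10 and 0 at E18.5 and 3 and 0 at P56. Replicate 1 of E18.5 had the highest value of all, 3.85, and replicate 2 of the same stage was at 0, so E18.5 overlapped every other stage. At P56 Calca was below both the E13.5 and the P14 library. The ratio of E13.5 to P56 was 4.68 (counting interval 1.17 to 26.9), but no change of Calca was called in any comparison, with limma adjusted p between 0.629 for P56 against E18.5 and 0.824 for P14 against E18.5. Scg5, the chaperone 7B2 of the prohormone convertase PC2 (chromosome 2, 113776362 to 113829121, minus strand), had 6 reads at E13.5 and none at E15.5. Its replicates at E18.5 held 6 and 0, P14 held 1, and the replicates at P56 held 4 and 3. The ratio of E18.5 to P56 was 1.08 (0.299 to 3.74), too wide to show a direction.

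Syp had its highest values after birth. It encodes synaptophysin, the most abundant membrane protein of small synaptic vesicles, and lies on chromosome X at 7638471 to 7653256. Syp had 0 reads at E13.5 and 1 in each of the other 3 fetal libraries, but 9 at P14, and 11 and 4 in the P56 replicates. Each of the 3 postnatal libraries lay above each of the 4 prenatal ones, with values of 1.30 to 3.13 against at most 0.385. Over the reads of those libraries the ratio of postnatal to prenatal was 9.59 (counting interval 2.91 to 49.8). Syp did not pass the filter, and in the unfiltered limma fit it had an adjusted p of 0.313 for P56 against E18.5 and 0.387 for P14 against E18.5. An antisense gene, Gm14703, overlaps Syp and another, Uchl1os, overlaps Uchl1 in the annotation. Whether the counting used strand is unstated in the sources at hand, so reads of each pair cannot be told apart.

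Around birth and after it no member changed by the test. Between E18.5 and P14, 0 of the 3 tested members were called by limma, where 3.11% of genes were called, 1.87% higher and 1.24% lower. Between P14 and P56 it was 0 of 3, where 0.818% of genes were called, 0.123% higher and 0.694% lower. Between E18.5 and P56 it was again 0 of 3, where 14.2% were called, 8.07% higher and 6.15% lower. The limma count at an unadjusted p under 0.05 was 1 (Uchl1) for P56 against E18.5 and 0 for the other 2 comparisons, and edgeR and DESeq2 called 0 members in each. Both P56 values of Uchl1 lay below both E18.5 values, and the log2 change was -1.48 (SE 0.601, limma adjusted p = 0.153). Without P56 replicate 2, the lower P56 library, it was -0.46, and without P56 replicate 1 it was -2.51. The step from E18.5 to P14 was -0.74 and that from P14 to P56 -0.75, with limma adjusted p = 0.654 and 0.836.

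**Figure D2:**
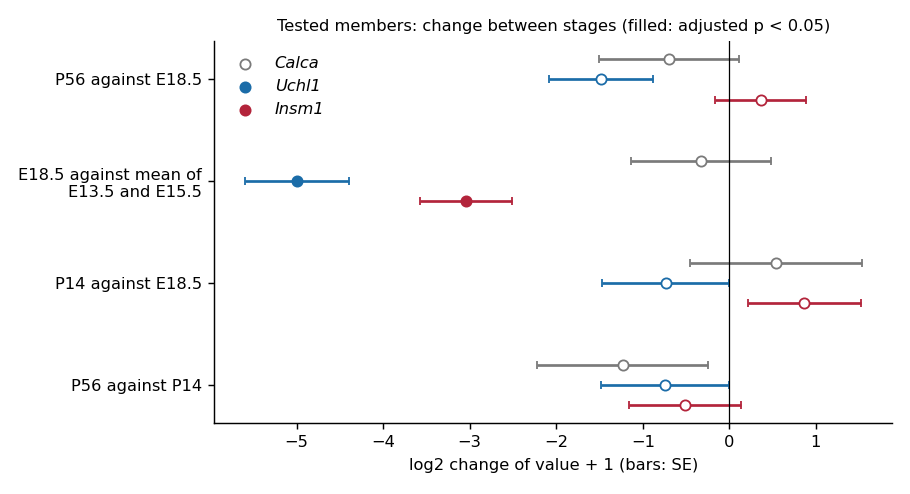
Change in log2(value + 1) with its SE (bars) for the 3 members that passed the filter, Calca, Uchl1 and Insm1, in 4 stage comparisons; filled points have an adjusted p under 0.05. Uchl1 at -4.99 and Insm1 at -3.05 in E18.5 against the mean of E13.5 and E15.5 are the only filled points.

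The 7 members together took 0.180% of the reads at E13.5 (95% exact binomial interval 0.175 to 0.184%) and 0.0930% at E15.5 (0.0893 to 0.0968%). They took 0.00344% and 0.00438% in the E18.5 libraries, 0.00257% at P14, and 0.00307% and 0.000806% in the P56 libraries. Uchl1 held 98.3% and 99.6% of the member reads in the early libraries and 65.4% in P56 replicate 2, so the summed share follows Uchl1. Without Uchl1 the other 6 took 0.00313% at E13.5 (122 reads, 99 of them Insm1) and at most 0.000649% in the later libraries. Neuron markers took 0.000385% at E13.5 and 0.000820% at E15.5, and 8 of the 14 had values. Over the same stages the type 2 cell markers Sftpc, Sftpb and Lamp3 rose from 0.00778% of the reads at E13.5 to 3.58% and 3.8% at P56. The part that cell composition had in the member values was not tested.

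**Figure D3:**
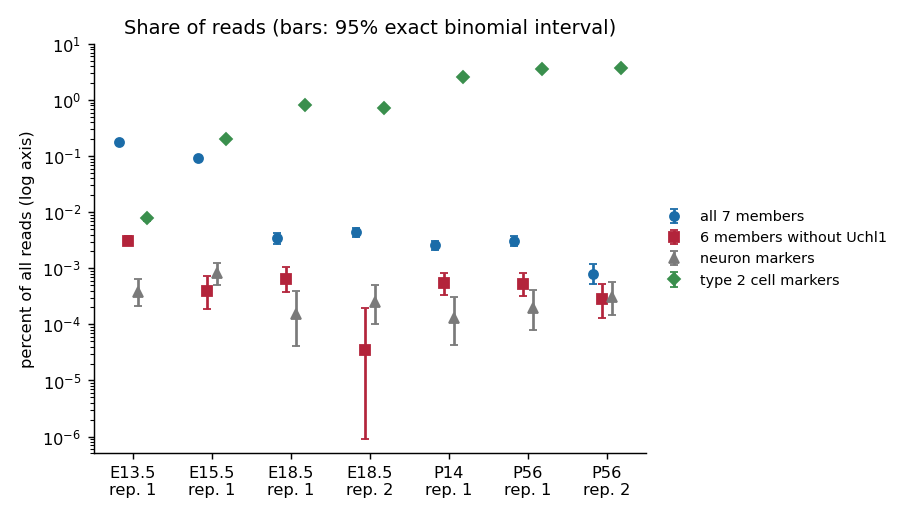
Percent of all reads (log axis) taken by the 7 members, by the 6 members without Uchl1, by neuron markers and by type 2 cell markers in each library, with 95% exact binomial intervals. The members fall from 0.180% at E13.5 to 0.000806% in P56 replicate 2 while the type 2 markers rise to 3.8%.

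Other genes of the neuroendocrine programme were read from lists, beginning with regulators of their fate. Of 12 listed regulators 8 had values and 5 were tested. By the mark of 2 in log2(value + 1), 2 of the 5 were higher at E13.5 than at E15.5, St18 among them, and none lower. Of all genes 1.5% were higher and 3.73% lower, and each stage had 1 library. The median difference of the 5 was 0.15 beside -0.004 over all genes. St18, a zinc finger factor, had 88 reads at E13.5, but 12 at E15.5, with 11 and 7 in the E18.5 replicates. It was high again at P14, with 46, and stood at 20 and 8 in the P56 replicates. At E18.5 against the early mean the 5 regulators had a median log2 change of -1.30, beside 0.03 over all genes. In that comparison 1 of the 5 was called lower and none higher, where 13.4% and 15.8% of all genes were. It was Dll3, a Notch ligand family member that acts as an inhibitor, with 24 reads at E13.5, then 14 at E15.5, and 1 in the E18.5 replicates together. Its E13.5 to E18.5 ratio was 29.8 (counting interval 4.86 to 1225), with a limma adjusted p of 0.0208 for E18.5 against the early mean. Dll3 passed the filter by its early reads and could hardly be anything but lower later, so its call is a description. St18 had a limma adjusted p of 0.072 in that comparison, and Rest, the repressor of neuronal genes, 0.107. No regulator was called by limma in the 3 later comparisons.

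Of 20 other secretory and peptide genes 11 had values and 6 were tested. Cpe, the carboxypeptidase that trims prohormones in dense-core vesicles, had 119 reads at E13.5, then 8 at E15.5, and 0 in both E18.5 libraries, so that it was at least 49.2-fold higher at E13.5 than at E18.5. It was the 1 gene of the 6 called lower at E18.5 against the early mean (limma adjusted p = 0.00182), with none higher. Of all genes 13.4% were called lower there and 15.8% higher. The median log2 change of the list was -0.43. Cpe then stood at 5 reads at P14 and 11 and 10 at P56, and it was called higher at P56 than at E18.5 (limma adjusted p = 0.0241). Ddc, which makes serotonin and dopamine from their precursors, had 12 and 18 reads at E18.5, 4 at P14 and 0 in both P56 libraries. It was the 1 gene called lower at P56 than at E18.5 (limma adjusted p = 0.01245). Ddc passed the filter by its E18.5 reads and could hardly be anything but lower at P56, so its call is a description. In that comparison 1 of the 6 was called higher and 1 lower, where 8.07% and 6.15% of all genes were. The list median was 0.70 beside 0.06 over all genes. Nmb, a bombesin-family peptide gene, had 42 to 131 reads in every library and no call. Resp18 had 1 read in each P56 library and 0 in the other 5. No gene of the list was called in P14 against E18.5 or P56 against P14.

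Genes of the fusion machinery serve vesicle release in neurons, endocrine cells and other secretory epithelia. Of 14 listed genes 13 had values and 11 were tested. At E18.5 against the early mean, 4 of the 11 were called higher and 1 lower, where 15.8% and 13.4% of all genes were (median log2 change 0.46 beside 0.03 over all genes). Rab3a, a small GTPase of secretory vesicles, went from 5 and 15 reads at E13.5 and E15.5 to 49 and 60 at E18.5 (log2 change 2.54, limma adjusted p = 0.000959). Rab3d, Vamp8 and Stx3, which serve regulated secretion in many epithelia, rose by 1.54, 1.46 and 1.002 on the log2 scale (limma adjusted p = 0.0177, 0.0139 and 0.0359). Cplx2, complexin 2, a clamp of synaptic fusion, fell by 2.80 on the log2 scale from 54 and 50 reads to 3 and 4 (limma adjusted p = 0.00184). At P56 against E18.5, 3 of the 11 were called higher and none lower, where 8.07% and 6.15% of all genes were (median 0.77 beside 0.06). Among them Syt7, a calcium sensor of slow secretion, went from 25.2 to 116 units and Cplx2 from 1.33 to 12.3. None was called in P56 against P14.

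Of 6 receptor genes for the peptides 5 had values and 3 were tested. Ramp1, which pairs with Calcrl to form the CGRP receptor, had 6 reads at E13.5 and 2 at E15.5, while the replicates at E18.5 held 15 and 34. It had 171 at P14, with 201 and 166 in the P56 replicates. All 3 postnatal libraries lay above every fetal library. Ramp1 was called higher at E18.5 than at the early mean (log2 change 2.25, limma adjusted p = 0.00666) and at P56 than at E18.5 (2.55, adjusted p = 0.00737). Calcrl itself had 7 reads at E13.5, 1 at P14 and 0 in the other 5 libraries. Ramp2, which with Calcrl makes an adrenomedullin receptor, had 27 reads at E13.5, then 11 at E15.5, and 0 in both E18.5 libraries. It was called lower there (limma adjusted p = 0.00822). Like Dll3, Ramp2 passed the filter by its early reads, so its call is a description. Ramp3 had 77 reads at E13.5, then 7 at E15.5, with 0 and 19 in the E18.5 replicates, and was not called. Endothelial markers, with which Ramp2 and Calcrl are often expressed, summed to 56 and 53 reads in the early libraries, 14 and 31 in the E18.5 replicates, 7 at P14, and 21 and 10 in the P56 replicates, and their part in these values was not tested.

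**Figure D4:**
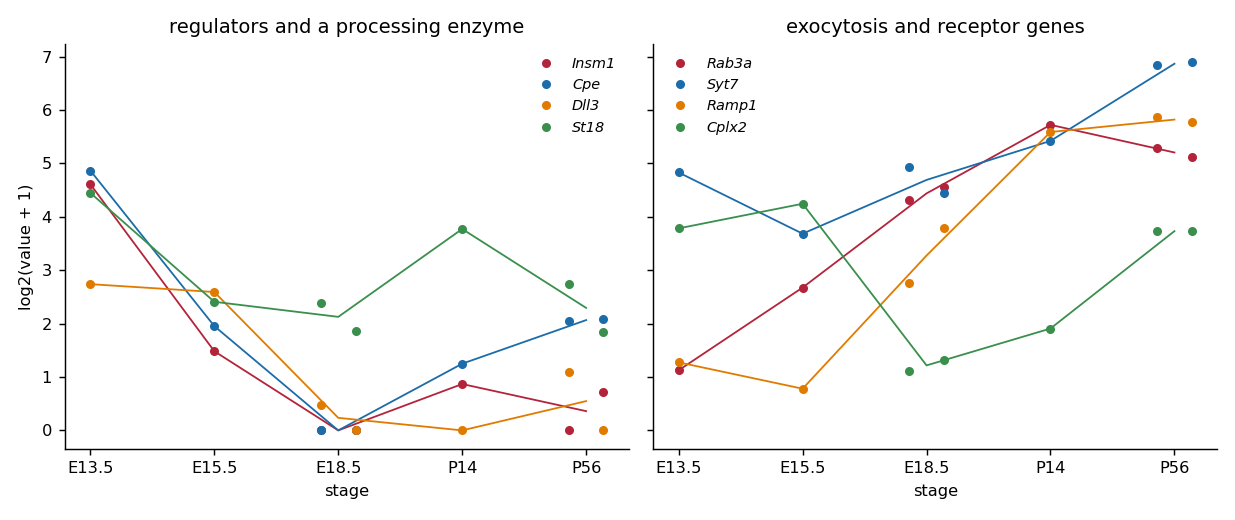
Level as log2(value + 1) of Insm1, Cpe, Dll3 and St18 (left) and of Rab3a, Syt7, Ramp1 and Cplx2 (right) by stage, with points for libraries and lines through stage means. Insm1, Cpe and St18 are highest at E13.5, and Ramp1 runs from 6 and 2 reads in the early libraries to 166 to 201 after birth.

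Across the 7 libraries the genes with the course most like that of Uchl1, among 6340 with a mean value of at least 10, were Khsrp (Pearson r = 0.988) and Hmga1 (r = 0.9878) on log2(value + 1). Hmga1, a chromatin protein gene of growing fetal tissues, ran from 3425 at E13.5, through 2098 at E15.5, to between 313 and 667 in the other libraries. Khsrp, an RNA-binding protein gene, ran from 307 to 127. For Insm1 the nearest were Pcbp4 (r = 0.9904), from 1340 at E13.5 to 149 in P56 replicate 1, and Eif3a (r = 0.9771). Uchl1 and Insm1 themselves had r = 0.775 over the same libraries. These correlations describe 7 points that share an order of stages.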

How the data were processed

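The members and the lists of related genes were chosen with earlier results of these data known. RNA was read by 3' SAGE sequencing, which counts short tags near the 3' end of transcripts, and reads of different genes set side by side compare tags, not RNA levels. What the authors deposited is, judging by the values, a signal made by scaling each library's tag reads with a single factor: divided by its smallest step, each column gave whole reads for 100% of genes within 0.01 reads. The tools named are mm10 as the build, R 3.4.0 and Bowtie2 2.2.5, per the submitters' processing notes. The counting program, its annotation and the scaling method are not given in the sources used here.

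Genes passing edgeR's filterByExpr by stage on the recovered reads, 12964 of 21121, entered limma-trend, fitted to log2(value + 1) with 1 coefficient per stage, robust variances and 2 residual degrees of freedom. Stages with a lone library take their spread from E18.5 and P56. Pseudocount 1 pulls changes of low genes towards 0. All 9 members are named, and of each list up to 4 genes with the smallest p, with others named after their values were seen. Intervals are 95% exact Poisson or binomial, and ratio intervals condition on the reads. A group at 0 reads was set at 3 reads over the group. The count tests, edgeR quasi-likelihood and DESeq2 Wald, used recovered reads. The fit was tested on simulated data, with changes set only in genes of more reads and with a spread fixed in advance. That test does not bear on members with few reads. Some genes of the lists are counted but not reported here by name. The motifs and the mark of 2 were set after the files were seen. Replicate numbers shared by E18.5 and P56 were checked for pairing. Software comprised Python 3.11.15, scipy 1.17.1, matplotlib 3.10.9, DESeq2 1.42.0, edgeR 4.0.16, limma 3.58.1 and R 4.3.3.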

Additional observations from a re-analysis of the deposited data

How the results depend on the processing

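The calls of Uchl1 and Insm1 at E18.5 against the early mean held under TMM and median-of-ratios scaling, pseudocounts of 0.5 and 4, no robust variance estimate, edgeR and DESeq2. With no filter on low reads limma again called 2 members lower, but these were Insm1 and Chga. Chga was at 0 in every E18.5 and P56 library, from which the spread is taken, so its call is a description. Uchl1 had a limma adjusted p of 0.096 in that fit. With each E18.5 or P56 library left out in turn the count was 0 each time (lowest 0, highest 0), on 1 residual degree of freedom, where limma called 0 of all genes, while both members kept an unadjusted p under 0.05. In those fits the change of Uchl1 ran from -5.34 to -4.65. Against E15.5 alone, a comparison added after seeing the data, 1 member was called. With the replicate number as a block the count was 2 (Uchl1 adjusted p = 0.0259, Insm1 0.0329) and no call of a member changed. All-gene calls in that comparison fell with the block from 2043 to 1121 higher and from 1736 to 772 lower. The deviations of same-numbered E18.5 and P56 libraries had r = 0.01 over 12964 genes, so no common shift of same-numbered libraries was seen. Whether they shared a preparation cannot be told from this correlation. Counts of members called in the other comparisons stayed at 0. Over all genes at E18.5 against the early mean, DESeq2 called 991 lower and 1421 higher, against E15.5 alone limma called 581 and 785, and with no filter it called 2267 and 1352. Without Uchl1 the members' share of reads was 0.00313% (E13.5), 0.000391% (E15.5), 0.000649% and 3.56e-05% in the E18.5 replicates, 0.00055% (P14), and 0.00053% and 0.000279% in the P56 replicates. With the 10 most abundant genes left out of the total, the share of all 7 members, Uchl1 included, was 0.225% (E13.5), 0.115% (E15.5) and 0.00542% in E18.5 replicate 2. Of the full total those members took 0.180%, 0.0930% and 0.00438% in the same libraries. At this depth 5 of the 7 members had at most 11 reads a library, so their ratios have wide counting intervals.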

Other observations

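The E18.5 libraries differed in several neuroendocrine genes, and not all in the same direction. Replicate 1 held 10 reads of Calca, 6 of Scg5 and 5 of Ptprn, a dense-core vesicle membrane protein gene, and replicate 2 held 0 reads of each. These genes were picked after their values were seen, as was the range of 5 to 13 reads in the comparison that follows, which has no test. Of 10 members and related genes with 5 to 13 reads in replicate 1, 4 were at 0 in replicate 2, Calca, Scg5 and Ptprn among them, where 6.85% of 2920 such genes over the whole table were. In the other direction 1 of 3 was at 0, Dll1, where 7.31% of 2845 genes were. Ramp3 went the other way as well, with 0 reads in replicate 1 and 19 in replicate 2. So did Uchl1, the member with by far the most reads, with 73 in replicate 1 and 122 in replicate 2. Its ratio of replicate 2 to replicate 1 was 1.64 (counting interval 1.21 to 2.22). Chga and Insm1 had 0 reads in both libraries, and Ddc had 12 and 18. Slc18a1, the vesicular amine transporter gene, had 9 reads in replicate 1 and 1 in replicate 2.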
